A study of Mus musculus with 12 samples.

Results

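The genes described are the D-type cyclins Ccnd1, Ccnd2 and Ccnd3, their partner kinases Cdk4 and Cdk6, the kinase inhibitors Cdkn1a, Cdkn1b and Cdkn2c, and the pocket proteins Rb1 and Rbl2. They were chosen by symbol for their place in the passage of cells through G1, with earlier results of these data known. All 10 were found among the 25700 genes of the count table. D-type cyclins are made in response to growth signals and activate CDK4 and CDK6, which phosphorylate the retinoblastoma family of pocket proteins and so release E2F factors from repression. The proteins p21 (Cdkn1a) and p27 (Cdkn1b) bind cyclin-kinase complexes of several kinds, whereas p18 (Cdkn2c) belongs to the INK4 family, which binds CDK4 and CDK6 alone. In developing nerve, Schwann cells divide while they sort axons and leave the cell cycle when they begin to myelinate.

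RNA was measured by bulk Smart-Seq2 sequencing in Schwann cells sorted from sciatic nerves of postnatal day 5 mice of both sexes. The animals were P0Cre-/+: ReYFP Tg/+: βAct-DsRed Tg/+ on a C57BL/6J background, so that Cre under the P0 promoter switched on eYFP in Schwann cells and DsRed was present in all cells, and none of them had received a treatment. The eYFP-positive cells were collected in 3 gates: allSC held all of them, mSC those of high side scatter, enriched in myelinating cells, and nmSC those of low side scatter, enriched in not-myelinating cells. Each gate had 4 libraries, from mice numbered 1 to 4, and each sample came from 1 mouse with at least 10000 sorted cells. A gate enriches a cell state and does not purify it, and allSC contains the cells of both other gates.

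Total counts ran from 8180927 to 16918122 per library. Levels are CPM, counts scaled to a common library total, after normalization by the trimmed mean of M-values (TMM), and the limit of 3 counts lay between 0.177 and 0.367 CPM, far below the levels of the 10 genes, whose lowest count was 107. The gates held the markers of their names: summed over 7 myelin genes the level was 155063 to 212424 CPM in mSC and 18331 to 20939 CPM in nmSC, and 4 markers of not-myelinating cells reached 79.2 to 131 CPM in mSC and 828 to 1142 CPM in nmSC. Of the markers of other nerve cells, the sum of 5 fibroblast-like genes was 436 to 1034 CPM in mSC and 2921 to 4099 CPM in nmSC, nearly all of it Col1a1, while Pdgfra stood at 2.34 CPM in both. Immune markers summed to 14.6 to 23.5 CPM in mSC and 19.0 to 29.0 CPM in nmSC. Csf1r stood at means of 11.5 and 11.6 CPM and Ptprc at 5.67 and 8.79 CPM, while Aif1, at 0 and 0.17 CPM, was not tested. Of the 5 immune markers tested, 1 was lower in mSC and 0 were higher. Endothelial markers summed to 20.6 to 30.7 CPM in mSC and 7.70 to 15.8 CPM in nmSC. Kdr made 20.3 and 5.88 CPM of this on average, while Pecam1 was lower in mSC (log2 fold change -0.95, edgeR adjusted p = 0.0427). Mural markers summed to 64.0 to 176 CPM in mSC and 47.1 to 84.9 CPM in nmSC, nearly all of it Pdgfrb, and perineurial markers to 136 to 216 and 202 to 337 CPM, with Slc2a1 higher and Itgb4 and Cldn1 lower in mSC. The part of these cells in the values below was not tested. In bulk RNA, fewer cells expressing a gene and less of its RNA in each cell cannot be told apart.

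The first question was how the G1 genes differ between the gate enriched in myelinating cells and the gate enriched in not-myelinating cells. Between mSC and nmSC, 7 of the 10 genes passed the test (edgeR's quasi-likelihood test, Benjamini-Hochberg adjusted over 18597 genes), against 40.5% of all genes tested. Cdkn1a, Cdkn1b and Rb1 were higher in mSC, 3 of 10 against 20.4% of all genes, and Ccnd1, Ccnd3, Cdk6 and Cdkn2c were lower, 4 of 10 against 20.2%. For Ccnd2, Cdk4 and Rbl2 no difference was detected. In 6 of the 10 genes the 4 mSC libraries did not overlap the 4 nmSC libraries, as in 34.2% of all tested genes. The median log2 difference of all tested genes was -0.16, and relative to it the difference was 2.502 for Cdkn1a, 1.16 for Cdkn1b, 0.77 for Rb1, -1.16 for Ccnd1, -1.35 for Ccnd3, -1.94 for Cdk6 and -1.96 for Cdkn2c. The differences that follow are as fitted.

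Ccnd1 encodes cyclin D1 (ENSMUSG00000070348, chr7:144929931-144939925 of GRCm38, minus strand). In mice 1 to 4 its level was 104, 105, 125 and 182 CPM in mSC, 230, 247, 204 and 234 CPM in allSC, and 337, 323, 330 and 293 CPM in nmSC. Every mSC library was below every allSC library, and every allSC library below every nmSC library. The means were 129 ± 36.5 CPM in mSC and 321 ± 19.4 CPM in nmSC (SD, n = 4), and the fitted log2 fold change was -1.32 (SE 0.16, edgeR adjusted p = 1.19e-06). Part of its exons lies opposite an exon of LTO1, and whether the counting used strand is not given in the sources used here.

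Ccnd3, which encodes cyclin D3 (ENSMUSG00000034165, chr17:47505051-47599691, plus strand), followed the same order. Its libraries read 49.4, 64.8, 76.2 and 73.2 CPM in mSC, 130, 136, 129 and 137 CPM in allSC, and 203, 180, 197 and 172 CPM in nmSC. The 3 gates did not overlap. The difference between mSC and nmSC was -1.52 on the log2 scale (SE 0.13, edgeR adjusted p = 2.71e-08). Its exons overlap Bysl on the other strand.

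Ccnd2 encodes cyclin D2 (ENSMUSG00000000184, chr6:127125162-127152193, minus strand), and it did not share this pattern. Its levels were 27.8, 29.9, 36.2 and 51.5 CPM in mSC, 25.5, 32.2, 34.4 and 42.3 CPM in allSC, and 41.5, 26.3, 42.8 and 40.7 CPM in nmSC. The gates overlapped throughout, with mouse 4 highest in mSC and allSC and mouse 2 lowest in nmSC. The log2 difference between mSC and nmSC was -0.066 with an SE of 0.20 (edgeR adjusted p = 0.810).

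**Figure D1:**
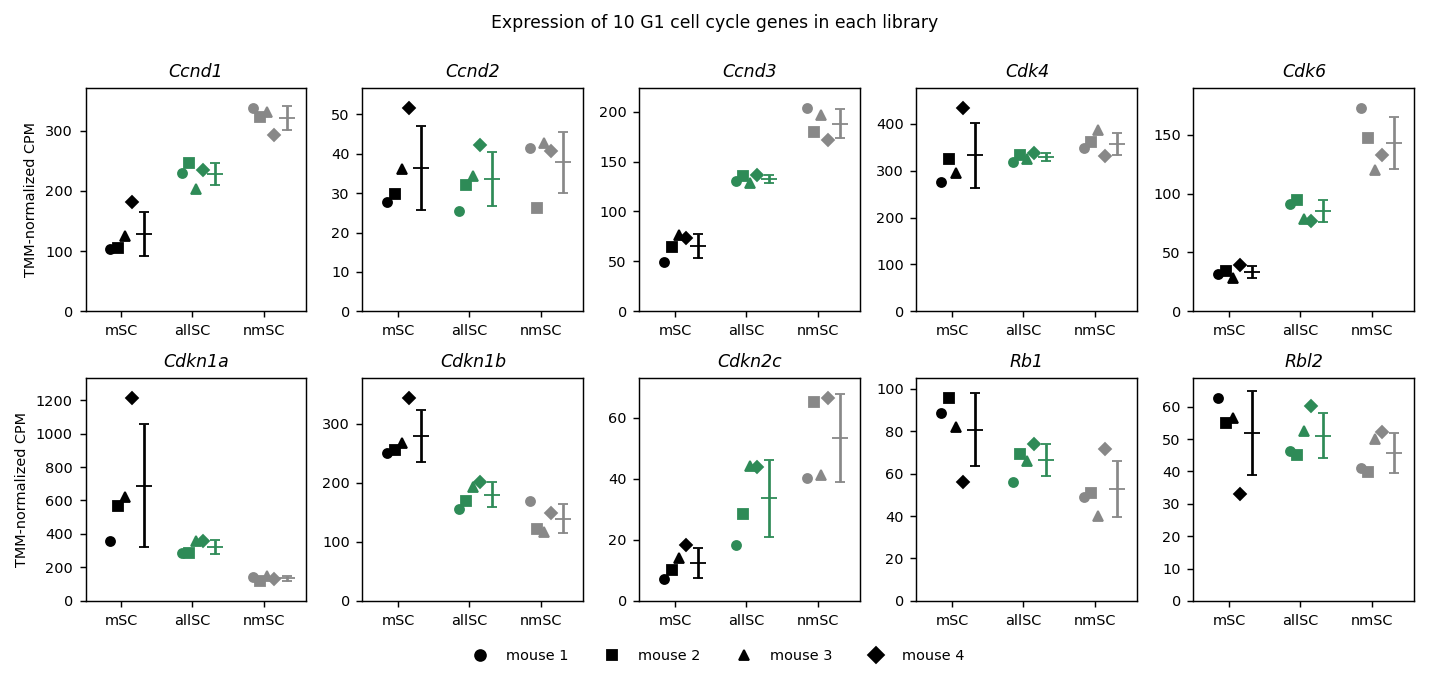
TMM-normalized CPM (vertical axes, each from 0) of the 10 genes in the mSC, allSC and nmSC gates; each symbol is the library of 1 mouse, and the bar beside it is the mean with the SD of 4 libraries. Ccnd1, Ccnd3 and Cdk6 rise from mSC over allSC to nmSC without overlap, Cdkn1a runs from 1212 CPM in mSC of mouse 4 down to 118 CPM in nmSC of mouse 2, and Ccnd2, Cdk4 and Rbl2 overlap in all gates.

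The kinases Cdk4 (ENSMUSG00000006728, chr10:127063534-127067920, plus strand) and Cdk6 (ENSMUSG00000040274, chr5:3341485-3531008, plus strand) can each serve all D-type cyclins, but their levels moved apart. Their promoters are shown because the pair shares a role and not a response. The sequences are the 250 bases before the annotated start in RefSeq (GRCm38.p6, both on the plus strand), at chr10:127063285-127063534 for Cdk4 and chr5:3343643-3343892 for Cdk6. Capitals mark the E-box CACGTG, the GC box GGGCGG in either direction and the TATA box TATAAA. Positions count from the annotated start and give the first base of a match.
Cdk4: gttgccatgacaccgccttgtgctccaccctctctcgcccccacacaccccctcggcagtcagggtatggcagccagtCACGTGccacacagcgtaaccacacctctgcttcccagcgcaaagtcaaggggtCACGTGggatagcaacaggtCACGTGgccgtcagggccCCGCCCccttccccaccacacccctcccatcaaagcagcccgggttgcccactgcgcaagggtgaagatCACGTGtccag
Cdk6: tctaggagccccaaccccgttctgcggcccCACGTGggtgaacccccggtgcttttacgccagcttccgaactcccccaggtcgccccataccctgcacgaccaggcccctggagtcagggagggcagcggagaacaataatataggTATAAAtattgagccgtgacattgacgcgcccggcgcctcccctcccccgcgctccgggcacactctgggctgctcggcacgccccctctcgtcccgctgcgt
The E-box, a motif bound by MYC among others, occurred 4 times before the Cdk4 start, at -172, -118, -98 and -11, and once before that of Cdk6, at -220. Of the 32851 promoter windows of 300 bases in the same table, 7.15% held this E-box on either strand, 35.7% a GC box and 13.6% the TATA letters, which Cdk6 had at -103. Neither window held TTTCCCGC or TTTGGCGC, forms of the E2F site found in 1.07% and 0.514% of all windows. The other motifs searched on both strands, TGACGTCA (1.79% of windows), TGANTCA (7.81%), GCGTGGGCG (0.612%) and GTAAACA (3.65%), had no match in these windows or in those of Cdkn1a and Cdkn1b shown further on.

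Cdk6 stood at 31.6, 34.1, 28.3 and 39.5 CPM in mSC, at 91.3, 94.9, 78.6 and 76.4 CPM in allSC, and at 172, 147, 120 and 133 CPM in nmSC. The gates were fully separate. Against nmSC its fitted change in mSC was -2.10 on the log2 scale (SE 0.15), with the smallest adjusted p of the 10 genes (9.15e-10, edgeR).

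Cdk4 read 275, 325, 296 and 433 CPM in mSC, 319, 334, 325 and 338 CPM in allSC, and 348, 361, 387 and 331 CPM in nmSC. The mSC library of mouse 4 was the highest of all 12, and the other mSC libraries were below the lowest nmSC library. The log2 difference was -0.10 (SE 0.13, edgeR adjusted p = 0.537), and without the mSC library of mouse 4 it was -0.25 (edgeR adjusted p = 0.0448). Exons of Cdk4 overlap Tspan31 on the other strand.

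Among the inhibitors, Cdkn1a, the gene of p21 (ENSMUSG00000023067, chr17:29090976-29100727, plus strand), had the largest rise. It was at 357, 564, 618 and 1212 CPM in mSC, at 285, 287, 357 and 357 CPM in allSC, and at 146, 118, 147 and 132 CPM in nmSC. Mouse 1 was lowest and mouse 4 highest in mSC, a spread that the nmSC libraries did not show, and each mouse was higher in mSC than in nmSC. On the log2 scale the rise over nmSC was 2.34 (SE 0.25, edgeR adjusted p = 3.97e-07), and it was 1.92 (edgeR adjusted p = 7.38e-10) without the mSC library of mouse 4.

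Cdkn1b, the gene of p27 (ENSMUSG00000003031, chr6:134920401-134925513, plus strand), rose less and more evenly. The libraries held 250, 255, 267 and 343 CPM in mSC, 156, 169, 193 and 201 CPM in allSC, and 169, 122, 116 and 149 CPM in nmSC. All mSC libraries were above all others, while nmSC and allSC overlapped. The rise over nmSC was 1.00 on the log2 scale (SE 0.15, edgeR adjusted p = 1.77e-05). Where libraries were scaled by their total alone, the rise of Cdkn1b was 0.42 (edgeR adjusted p = 0.0143). On that scale its mSC and nmSC libraries overlapped, the lowest in mSC at 211 CPM and the highest in nmSC at 215 CPM. No other annotated gene shares its exons.

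The promoters of the risen inhibitors are shown as those of the genes that were higher in mSC and had a window (250 bases before the RefSeq starts, GRCm38.p6, plus strand, chr17:29090729-29090978 for 1 of the 2 Cdkn1a windows and chr6:134920151-134920400 for Cdkn1b). Capitals mark 2 copies of CATG and the 6 bases between them in Cdkn1a and CCAAT and GGGCGG in Cdkn1b.
Cdkn1a: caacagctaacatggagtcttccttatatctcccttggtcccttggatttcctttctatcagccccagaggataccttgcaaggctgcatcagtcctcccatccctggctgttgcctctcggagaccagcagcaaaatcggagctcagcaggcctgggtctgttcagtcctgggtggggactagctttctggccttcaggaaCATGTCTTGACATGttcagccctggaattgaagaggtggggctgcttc
Cdkn1b: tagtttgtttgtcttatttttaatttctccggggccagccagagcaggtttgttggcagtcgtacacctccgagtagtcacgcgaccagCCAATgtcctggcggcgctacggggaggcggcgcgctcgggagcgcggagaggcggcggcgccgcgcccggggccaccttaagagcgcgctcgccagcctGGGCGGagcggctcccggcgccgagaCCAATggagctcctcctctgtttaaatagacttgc
Cdkn1a is a classical target of p53, whose site joins copies of a short element with a core such as CATG. The paired core, a search chosen after this window had been seen, began at -48 and occurred in 0.712% of all windows. Cdkn1b had CCAAT at -161 and -35, a motif in 37.4% of windows, and a GC box at -61. The other Cdkn1a window held GC boxes too, at -104 and -46. RefSeq windows were matched for 7 of the 10 genes, and none was matched for Ccnd1, Ccnd2 and Rb1.

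Cdkn2c, the gene of p18 (ENSMUSG00000028551, chr4:109660876-109667189, minus strand), moved against Cdkn1a and Cdkn1b. Its levels were 7.26, 10.1, 13.97 and 18.3 CPM in mSC, 18.3, 28.3, 44.2 and 43.9 CPM in allSC, and 40.2, 65.0, 41.4 and 66.5 CPM in nmSC. The mSC and nmSC libraries were separate, and mSC and allSC overlapped at 18.3 CPM. Against nmSC the fitted log2 fold change of mSC was -2.12 (SE 0.29, edgeR adjusted p = 8.32e-06).

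Pocket proteins hold E2F factors in check in resting cells, and of the pair measured here 1 passed the test. Rb1 (ENSMUSG00000022105, chr14:73183673-73325822, minus strand) read 88.7, 95.6, 81.8 and 56.1 CPM in mSC, 56.0, 69.1, 65.9 and 74.0 CPM in allSC, and 49.2, 50.7, 40.1 and 71.4 CPM in nmSC. It was higher in mSC than in nmSC in mice 1, 2 and 3 and lower in mouse 4. The log2 fold change was 0.61 (SE 0.18, edgeR adjusted p = 0.0116), but 0.055 (edgeR adjusted p = 0.804) where libraries were scaled by their total alone, a scaling that put the median of all genes at -0.73.

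Rbl2, the gene of p130, a pocket protein of resting cells (ENSMUSG00000031666, chr8:91070057-91123844, plus strand), was at 62.7, 54.9, 56.7 and 33.1 CPM in mSC, 46.5, 45.1, 52.5 and 60.3 CPM in allSC, and 40.9, 39.8, 50.1 and 52.1 CPM in nmSC. Mice 1, 2 and 3 had more in mSC than in nmSC, and mouse 4 had less. The log2 difference was 0.18 (SE 0.17, edgeR adjusted p = 0.408), and it reached 0.35 (edgeR adjusted p = 0.0436) without the mSC library of mouse 4. Both pocket genes have exons that overlap other genes on the opposite strand.

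**Figure D2:**
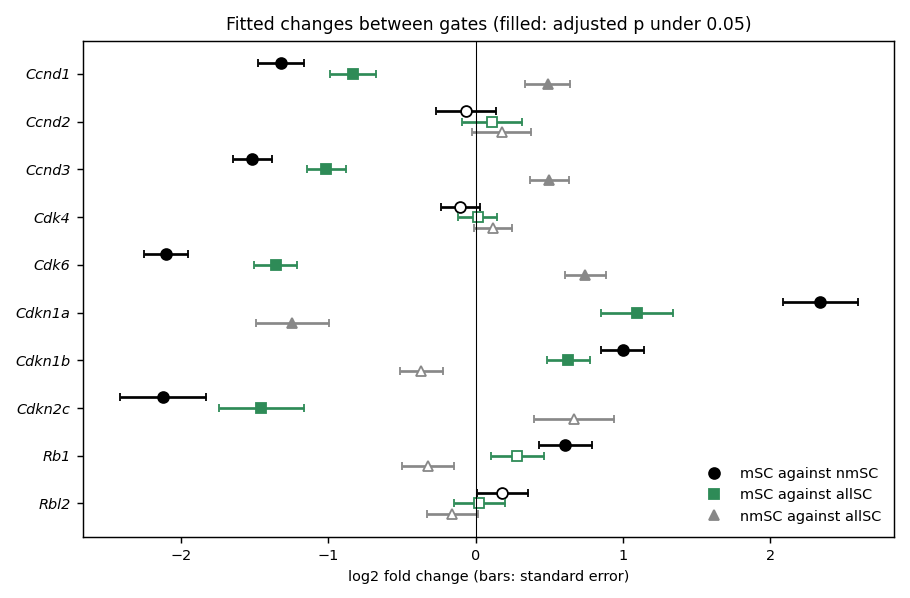
Fitted log2 fold changes (horizontal axis) of the 10 genes in 3 comparisons of gates, with bars of 1 standard error; filled symbols passed an adjusted p of 0.05 in edgeR's quasi-likelihood test. Cdkn1a at 2.34 and Cdkn2c at -2.12 lie farthest apart between mSC and nmSC, and Ccnd2, Cdk4 and Rbl2 have open symbols in every comparison.

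The mSC library of mouse 4 stood apart, and so, to the other side, did that of mouse 1. Among genes with a mean of at least 10 CPM whose longest transcript was under 1500 bases, the median log2 ratio to the other 3 libraries of the gate was 0.88 in mouse 4 and -0.76 in mouse 1, and over 6000 bases it was -0.22 and 0.19. Over all length classes in allSC and nmSC these medians lay between -0.205 and 0.196. In CPM, 7 of the 10 genes were highest of the mSC libraries in that of mouse 4, from Cdk4 and Cdkn1a with longest transcripts of 2053 and 2080 bases over Cdkn2c, Ccnd1 and Cdkn1b to Ccnd2 and Cdk6 with 6330 and 11525 bases. Rb1 and Rbl2, with 4656 and 4925 bases, were lowest there. The part of transcript length in the values of the 10 genes was not tested.

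Length also moved with the gates. Among the same genes of at least 10 CPM, the median log2 difference between mSC and nmSC fell from 0.35 for genes under 1500 bases to 0.0094 over 6000 bases. Set against the median of genes of like length, a comparison added after the data were seen, the difference was 2.04 for Cdkn1a, 0.84 for Cdkn1b and 0.45 for Rb1, and it was -1.48 for Ccnd1, -1.67 for Ccnd3, -2.11 for Cdk6 and -2.42 for Cdkn2c. The sign was that of the fitted difference in all 10 genes, while against the median of all tested genes Ccnd2 (0.096) and Cdk4 (0.059), which had no call, changed sign.

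**Figure D3:**
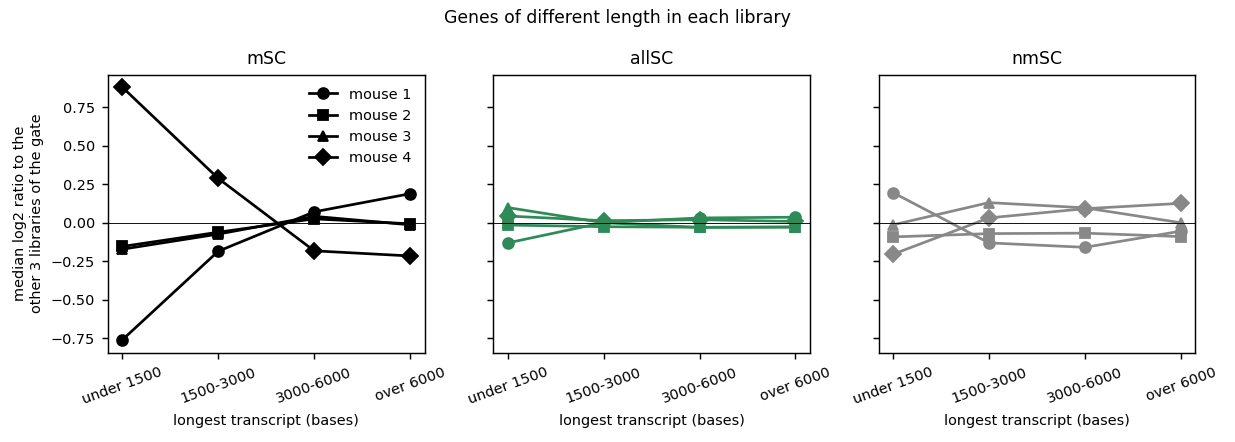
Median log2 ratio of each library to the other 3 libraries of its gate (vertical axis) by the length of the longest annotated transcript in bases (horizontal axis), for genes with a mean of at least 10 CPM; each line is 1 mouse. In mSC, mouse 4 falls from 0.88 to -0.22 and mouse 1 rises from -0.76 to 0.19, while the lines in allSC and nmSC run between -0.205 and 0.196.

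Whether the balance among the 10 genes changed within a family was asked from ratios of genes inside a library. No scaling of libraries can alter such ratios. Differences tied to transcript length are not removed by a ratio of genes of unlike length, and their part in the ratios was not tested. Ratios are of CPM divided by the length in kilobases of the union of a gene's exons (RPKM), and each was compared between mSC and nmSC by an exact two-sided permutation test, 4 libraries against 4, adjusted over 8 ratios. In 7 of the 8 ratios the gates did not overlap, which gives the smallest p the design allows (exact p = 0.0286, adjusted 0.0327). The 8 ratios share genes and are not independent, and the share of separated ratios among other pairs of genes was not computed. Of single genes, 34.2% had mSC and nmSC libraries that did not overlap.

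The ratio of Cdk4 to Cdk6 was 37.5, 41.1, 45.0 and 47.1 in mSC and 8.69, 10.6, 13.9 and 10.8 in nmSC, with allSC between them at 15.0 to 19.1. Of the summed RPKM of Cdk4 and Cdk6, Cdk6 therefore made up 2.31% ± 0.23 in mSC, 5.68% ± 0.63 in allSC and 8.55% ± 1.47 in nmSC (SD, n = 4). The fold between mSC and nmSC in this ratio was 3.93.

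Cdkn1a relative to Cdkn2c differed most. It was 37.1, 42.3, 33.4 and 49.97 in mSC and 2.75, 1.37, 2.68 and 1.504 in nmSC, a 20.4-fold difference of geometric means. Cdkn1b relative to Cdkn2c was 13.9 in mSC and 1.57 in nmSC, and Cdkn1a relative to Cdkn1b was 2.89 and 1.26. Cdkn2c thus made up 1.81% ± 0.26 of the summed RPKM of these 3 inhibitors in mSC, 8.57% ± 2.20 in allSC and 22.4% ± 5.99 in nmSC (SD, n = 4). Other inhibitor genes are outside this sum. Among them were Cdkn1c (means of 67.1 CPM in mSC and 443 CPM in nmSC) and Cdkn2d (68.0 and 65.8 CPM). In mice 1 to 4 the ratio of Cdkn1a to Cdkn1b was 1.83, 2.83, 2.97 and 4.53 in mSC and 1.11, 1.23, 1.61 and 1.13 in nmSC. Without any 1 of the nmSC libraries, the adjusted p of this ratio was 0.0653 in the exact permutation test.

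The proportions of the D cyclins differed as well as their sum. Summed over the family, the RPKM was 38.7 ± 9.78 in mSC, 67.3 ± 4.32 in allSC and 93.6 ± 5.81 in nmSC (SD, n = 4). Ccnd1 relative to Ccnd2 was 7.45, 7.005, 6.88 and 7.04 in mSC and 16.2, 24.6, 15.4 and 14.4 in nmSC, and Ccnd2 relative to Ccnd3 was 0.506 and 0.185 as geometric means. The share of Ccnd2 was 9.92% in mSC and 4.30% in nmSC. The ratio of Ccnd1 to Ccnd3 was the exception, at 3.59 and 3.19 with overlapping libraries (exact permutation p = 0.429), a log2 difference of 0.17 with an SE of 0.15.

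Rb1 relative to Rbl2 was 1.78, 2.19, 1.81 and 2.13 in mSC and 1.51, 1.60, 1.01 and 1.72 in nmSC. The gates were separate by a small margin, and each mouse had the higher ratio in mSC, mouse 4 included. Without the nmSC library of mouse 3, the log2 difference fell from 0.46 to 0.29 (adjusted p = 0.0653, exact permutation test). The call was lost at the same adjusted p without any 1 of the mSC libraries.

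**Figure D4:**
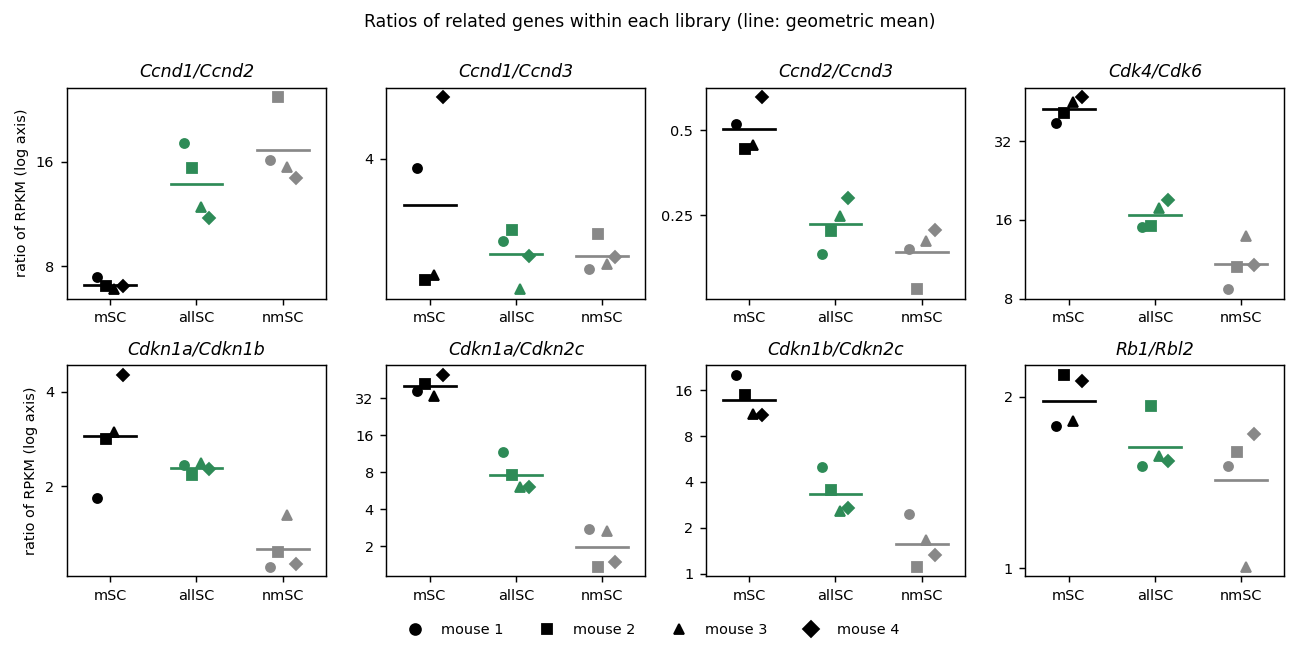
Ratios of RPKM of 2 related genes within each library (vertical axes, log scale) in the mSC, allSC and nmSC gates; symbols are mice 1 to 4 and lines are geometric means. The mSC and nmSC libraries are separate in every panel except Ccnd1/Ccnd3, and Cdkn1a/Cdkn2c goes from 40.3 in mSC to 1.97 in nmSC.

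Per length, the order of the 10 genes differed between the gates. In nmSC Cdk4 led with a mean of 110 ± 7.20 RPKM, before Ccnd1 with 68.2 ± 4.12 and Cdkn1a with 38.2 ± 3.84 RPKM (SD, n = 4). The ranges of Cdkn1a and Cdkn1b overlapped there, as did those of Ccnd3 and Cdkn2c and, lower down, those of Cdk6, Rb1 and Rbl2 from each to the next. In mSC Cdkn1a led with 194 ± 103 RPKM, overlapping Cdk4 with 102 ± 21.6 RPKM, and Cdkn1b followed with 61.2 ± 9.56 RPKM (SD, n = 4), above Ccnd1 with no overlap. With the longest transcript as the length, Ccnd3 stood above Cdkn1b in nmSC, at 48.7 and 30.6 RPKM, and neither Cdkn1a and Cdkn1b nor Ccnd3 and Cdkn2c overlapped there, so the order depends on the length used. Cdk6 was ninth of these genes in allSC and last in mSC, at 2.39 ± 0.338 RPKM (SD, n = 4).

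The unselected Schwann cells of allSC were compared with each gate, and these comparisons share their libraries with the one above. Between mSC and allSC, 6 of the 10 genes passed the test, against 17.6% of all genes: 4 were lower in mSC (8.8% of all genes) and 2 higher (8.76%). In 4 genes, Ccnd1, Ccnd3, Cdk6 and Cdkn1b, the libraries did not overlap (22.6% of all genes). The log2 fold changes were -0.83 for Ccnd1, -1.01 for Ccnd3, -1.36 for Cdk6, -1.46 for Cdkn2c, 1.096 for Cdkn1a and 0.63 for Cdkn1b (edgeR adjusted p between 1.34e-06 and 0.00484). With library totals as the scale, Cdkn1b lost its call (0.31, edgeR adjusted p = 0.101) and Cdk4 gained one (-0.31, edgeR adjusted p = 0.0486). Rb1 differed by 0.28 (SE 0.18, edgeR adjusted p = 0.291), and by 0.45 (edgeR adjusted p = 0.0436) without the mSC library of mouse 4.

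Between nmSC and allSC, 4 of the 10 genes passed, against 10.4% of all genes: 3 were higher in nmSC (2.83% of all genes) and 1 lower (7.54%). In 4 genes, Ccnd1, Ccnd3, Cdk6 and Cdkn1a, the libraries did not overlap (19.3% of all genes). Cdk6 was higher in nmSC by 0.74 on the log2 scale (SE 0.14, edgeR adjusted p = 0.00135) and Cdkn1a was lower, at a log2 fold change of -1.24 (SE 0.25, edgeR adjusted p = 0.00193). Ccnd3 was higher by 0.50 (edgeR adjusted p = 0.0174) and Ccnd1 by 0.49 (edgeR adjusted p = 0.0470). The Ccnd1 call was lost with the mouse number as a block (edgeR adjusted p = 0.0643). Cdkn2c was not called in the design as fitted, at 0.67 (edgeR adjusted p = 0.152). It was called under the block, at 0.73 (edgeR adjusted p = 0.0249). Without a block it was called in the model of only the 2 gates compared, at 0.70 (edgeR adjusted p = 0.0405). The same held with library totals as the scale, at 0.93 (edgeR adjusted p = 0.0248). Only the calls of Cdk6 and Cdkn1a remained whichever library was left out, and the number called was 2 without any 1 of the allSC libraries or the nmSC library of mouse 1. Of all tested genes, the fits with 2 calls called 1344 to 1525, against 1928 with all libraries.

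On the linear scale of CPM, the allSC mean lay 47.4% of the way from mSC to nmSC for Cdk6, 52.0% for both Ccnd1 and Cdkn2c, 51.6% for Rb1, 54.9% for Ccnd3, 66.3% for Cdkn1a and 70.8% for Cdkn1b. Over the 7540 genes called between mSC and nmSC the median was 56.3%, with quartiles of 45.7% and 67.3%. Cdkn1b alone among the 7 called genes lay outside these quartiles.

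Other genes of the cyclin D, CDK and RB pathway were taken from a list of 28, of which 27 could be tested. Between mSC and nmSC 10 were lower (20.2% of all genes), 3 were higher (20.4% of all genes) and 14 did not pass, and the median log2 fold change was -0.13 against -0.16 over all genes. The lower genes included Cdkn1c, the gene of the inhibitor p57, which ran from 26.5 to 94.6 CPM in mSC and from 262 to 584 CPM in nmSC (log2 fold change -2.73, SE 0.35, edgeR adjusted p = 3.92e-06). p57 belongs to the same family as p21 and p27, whose genes were higher. Cdkn2b, an INK4 gene, was lower as well but stood at 0.087 to 0.34 CPM in mSC, where the limit of 3 counts lay at 0.177 to 0.278 CPM, and Cdkn2d, at 49.3 to 104 CPM in mSC and 60.1 to 81.4 CPM in nmSC, differed by 0.042 (edgeR adjusted p = 0.873).

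Rbl1, the gene of p107, the third pocket protein and itself an E2F target, was lower in mSC, at 4.86 to 11.3 CPM against 36.7 to 42.4 CPM in nmSC (log2 fold change -2.10, SE 0.19, edgeR adjusted p = 2.82e-08). Myc, which drives growth and cell cycle entry, fell by 2.53 on the log2 scale (SE 0.21, edgeR adjusted p = 1.11e-08). The other lower genes were the E cyclins Ccne1 and Ccne2, the phosphatase Cdc25a, the complex member Lin9, and Skp2 and Cks1b, which take p27 to degradation. Skp2 ran from 6.74 to 11.6 CPM in mSC and from 26.8 to 33.6 CPM in nmSC (log2 fold change -1.63, SE 0.16, edgeR adjusted p = 1.54e-07). The higher genes were Cdk7 (0.43), the E2F partner Tfdp2 (0.38) and Fbxo31 (0.80), whose protein takes part in the turnover of cyclin D1. Between nmSC and allSC 0 of the 27 passed an adjusted p of 0.05 in edgeR (10.4% of all genes), and DESeq2 called 1. At an unadjusted p under 0.05 in edgeR, 6 were higher and 1 lower in nmSC. Of all 18597 tested genes, 3951 had such an unadjusted p. Between mSC and allSC 10 passed, all lower in mSC (8.8% of all genes).

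The genes of S phase and mitosis were lower in mSC without exception, 16 of 16 against 20.2% of all genes. Their median log2 fold change was -3.19. Their summed level was 238 to 339 CPM in mSC, 1238 to 1392 CPM in allSC and 1878 to 2450 CPM in nmSC. Mki67 was at 19.97 ± 4.91 CPM in mSC and 227 ± 35.6 CPM in nmSC (SD, n = 4). The study had already reported Mki67 and Top2a as elevated in nmSC. Of the 16, Pcna, which also serves DNA repair, moved least, by -0.41 (SE 0.15, edgeR adjusted p = 0.0348).

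Since Cdkn1a responds to p53, other p53 targets were counted, but whether p53 has a part in the rise of Cdkn1a was not tested. Of 16 listed, 15 could be tested, 7 were higher in mSC, 2 were lower and 6 did not pass, with a median log2 fold change of 0.33 against -0.16 over all genes, of which 20.4% were higher and 20.2% lower. Sesn1 (0.87), Phlda3 (1.08), Btg2 (0.98) and Plk2 (0.40) were among the higher ones, Mdm2, the ligase that limits p53, differed by 0.45 (SE 0.13, edgeR adjusted p = 0.00964), and Sesn2 and Fas were lower. Of 14 genes known to respond to the dissociation of tissue, 0 were higher in mSC in edgeR, also at an unadjusted p under 0.05, and 1 was in DESeq2, while 6 were lower, with Jun at 264 ± 125 CPM in mSC and 654 ± 138 CPM in nmSC (SD, n = 4).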

How the data were processed

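Per the labels and the study's methods, the authors prepared the libraries by Smart-Seq2, and the deposited values are whole-number counts of reads per gene without normalization. The submitters' processing notes name bcl2fastq, STAR 2.6.1c, featureCounts and GRCm38.p5. Strand use and the handling of reads shared between genes are not given in the sources used here, and no molecular identifiers were counted. The 10 genes and all lists were chosen with earlier results of these data known.

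Counts of 12 libraries were fitted in 1 model by gate with edgeR 4.0.16 (R 4.3.3, TMM factors of 0.744 to 1.28, filterByExpr, quasi-likelihood F test). Benjamini-Hochberg adjustment covered all 18597 tested genes at a threshold of 0.05. Of the 25700 identifiers, 25664 were in GENCODE M21 (GRCm38), which gave positions and lengths. The step was tested on simulated data. Mouse numbers were taken to pair the libraries, since the labels give libraries of 1 number the same subject and each sample came from 1 mouse. The deviations of same-numbered libraries correlated between -0.08 and 0.15. The design has no block, and the block is an alternative beside DESeq2 1.42.0, other scalings and filters, and leaving out each library. The exact permutation tests of ratios ran in Python 3.11.15 with numpy 2.4.6. All 10 genes were named, with listed genes that passed the test or led their list. For the genes with the largest rise and fall, the 3 genes most alike were named. Sex was not used, since the sources used here do not give it for each library. Per the study, every gate held samples of both sexes, and within a gate those of the same sex lay together. The spread between mice therefore includes that of sex.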

Additional observations from a re-analysis of the deposited data

Results flagged for a closer look

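Among 54 sets of 4 libraries examined for a value far from the others (10 genes and 8 ratios in 3 gates), 2 were flagged, where chance gives about 5% of sets. Ccnd2 was at 26.3 CPM in the nmSC library of mouse 2, while the other nmSC libraries lay between 40.7 and 42.8 CPM. The ratio of Rb1 to Rbl2 was 1.92 in the allSC library of mouse 2, against 1.51 to 1.57 in the other allSC libraries.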

How the results depend on the processing

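Between mSC and nmSC, the 7 calls and their directions remained under RLE size factors, DESeq2, both other filters, the model of 2 gates, the replicate block and every left-out library, with 7 to 9 genes called. Of all tested genes, these fits called 6174 to 7990. With library size alone, 1443 genes were higher and 10421 lower in mSC, against 3792 and 3748 with TMM, the median log2 change was -0.73, and of the 10 genes 8 were called: Rb1 lost its call and Ccnd2 (-0.65) and Cdk4 (-0.69) gained one. Without the 50 top genes in the library size, the same held for Rb1 (0.24, adjusted p = 0.270) and Cdk4 (-0.49), but not for Ccnd2. On the pathway list, library size alone called 21 genes, 0 higher and 21 lower, and leaving out libraries gave 11 to 14.

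Genes with no call in the design as fitted changed sign in some other fits, with a call only for Cdk4 between mSC and allSC with library size alone. Between mSC and nmSC, Ccnd2 turned to 0.00084 with DESeq2 and ran from -0.27 to 0.0586 over left-out libraries, and Rbl2 turned to -0.36 with library size and -0.18 without the top genes. Between mSC and allSC, library size and the top genes gave -0.21 and -0.11 for Ccnd2, -0.31 and -0.21 for Cdk4 and -0.27 and -0.18 for Rbl2, and library size gave -0.0116 for Rb1. In the same comparison Cdk4 was -0.00075 with the stricter filter and -0.0402 with 2 gates, Rbl2 was -0.0144 with 2 gates, and the ranges over left-out libraries were -0.0721 to 0.26 for Ccnd2, -0.11 to 0.12 for Cdk4 and -0.05996 to 0.21 for Rbl2. Between nmSC and allSC, Rbl2 was 0.10 with library size. The cause was not tested.

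Between nmSC and allSC, 2 to 4 genes were called over left-out libraries, 3 with RLE and 6 with library size alone. Of all tested genes, 1928 were called in the design as fitted, 1344 to 2785 over left-out libraries, 1911 with RLE and 2951 with library size alone. Ccnd1 was not called in 10 of the 12 fits with a library left out (adjusted p up to 0.163), with RLE (0.0537) or without a filter (0.0638). Ccnd3 was not called in 5 of those 12 (up to 0.0632). The replicate block changed no call other than those of Ccnd1 and Cdkn2c given above.

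For the ratios, the replicate block (a paired exact permutation test, smallest p 0.125, adjusted 0.143) left the log2 differences as they were and cannot pass: -1.28 for Ccnd1/Ccnd2, 1.45 for Ccnd2/Ccnd3, 1.97 for Cdk4/Cdk6, 1.20 for Cdkn1a/Cdkn1b, 4.35 for Cdkn1a/Cdkn2c, 3.15 for Cdkn1b/Cdkn2c and 0.46 for Rb1/Rbl2. Over left-out libraries Cdkn1a/Cdkn1b ran from 0.98 to 1.42 and Rb1/Rbl2 from 0.29 to 0.55 (adjusted p up to 0.0653 for both). With lengths of the longest transcript, family shares in mSC became 59.8% for Ccnd1, 30.3% for Ccnd3, 98.2% for Cdk4, 1.78% for Cdk6, 81.6% for Cdkn1a, 17.1% for Cdkn1b, 1.30% for Cdkn2c, 62.4% for Rb1 and 37.6% for Rbl2.

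The 4 mice per gate, bulk RNA, gates that enrich and PCR-amplified reads without molecular identifiers limit these values, and p-values cover the spread between these mice.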

Other observations

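The genes whose level over the 12 libraries was most like that of the gene with the largest rise and of the one with the largest fall were looked up among 9400 tested genes with a mean of at least 10 CPM, by Pearson's r of log2(CPM + 1). These values describe libraries that share gates, mice and depth, and carry no test. For Cdkn1a they were Rnf7 (r = 0.993), Tecr (0.993) and Lmo1 (0.992), with means of 605, 691 and 159 CPM in mSC and 212, 242 and 34.7 CPM in nmSC. For Cdkn2c the first was Cdkn1c (0.983), another kinase inhibitor, before Sfrp1 (0.974) and Csrp1 (0.972), with means of 67.1, 14.5 and 168 CPM in mSC and 443, 50.4 and 321 CPM in nmSC.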
